A study of Mus musculus with 15 samples.

Results

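The stefin A genes of mouse skin were followed across wounds filled with hydrogel beads. They were taken as every gene of the deposited table whose symbol begins with Stfa or Cstdc, which gave 8 of 18929 genes: Cstdc5, Cstdc6, Stfa3, Stfa2, Stfa2l1, Cstdc4, Stfa1 and Cstdc2. The set was chosen by the level of Cstdc5 in HDB 10 mm skin, so every value that involves HDB 10 mm skin is given as a description without a test, and tests are given only for comparisons among the other 4 groups. The estimate of spread in those tests still used all 5 groups. For Cstdc5, Cstdc6 and Stfa3, the adjusted p of a fit without the HDB 10 mm samples, added after seeing the data, is therefore set beside each. For the sum of Cstdc5 and Cstdc6, for other genes and for lists of genes, only the fit with all 5 groups is given.

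Bulk RNA sequencing covered 15 skin samples, 3 in each of 5 groups. All came from wild-type balb/c male mice of 4 to 6 weeks. Round wounds of 10 mm or 15 mm, through the full thickness of the back skin, received either Matrigel beads without cells (acellular) or HDB, which are beads loaded at high density with human umbilical cord mesenchymal stem cells and printed sparsely, with the space between them filled by beads without cells, and the normal group was unwounded skin. Wound and bead together separate every treated group from normal skin, because no group had a wound without beads. The labels describe the HDB samples as skin cells together with mesenchymal stem cells, whereas the table lists mouse genes, and how reads of the human cells were handled is not given in the sources used here. The methods name both 4 weeks after implantation and day 21 as an end point. The labels do not say that the numbered samples of a group are separate animals, so p-values measure the spread between samples, which may be partly technical. The skin markers Krt14 (1325 to 5811 CPM) and Col1a1 (730 to 5915 CPM) were present in all 15 samples.

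Stefins are small inhibitors of cysteine proteases that stay in the cytosol and block papain-like cathepsins by occupying their active site. Humans carry a single stefin A gene, CSTA, which is abundant in epidermis, where the protein is built into the cornified envelope. In the mouse the gene has multiplied into a cluster of closely similar copies. Mouse stefin A genes are known from bone marrow, neutrophils and inflamed or wounded skin.

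Of the 8 genes, 7 lie within 298.6 kb of chromosome 16 (GRCm38.p6 annotation, GENCODE M21), between Stfa2l1, which starts at 36156811, and Stfa3, which ends at 36455392. The whole cluster, from Csta1 to Stfa3, spans 335.4 kb and 11 annotated genes. Cstdc5 (Entrez 100034684) occupies chr16:36359382-36367570 on the minus strand. Stfa2 (Entrez 20862) lies at chr16:36403946-36408363 and Stfa3 (Entrez 20863) at chr16:36450537-36455392, both on the minus strand. Cstdc6 (Entrez 100038854) lies at chr16:36321665-36334332. Cstdc2 lies outside the cluster, at chr2:148844620-148850962, and its coding sequence is 44.9 to 47.3% identical to those of the cluster.

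The copies are close enough to matter for the counting of reads. Over the coding sequence, the 21 pairs of chromosome 16 genes were 73.1 to 97.9% identical, and 4 of these pairs shared at least one run of 50 bases between transcripts. Cstdc5 and Cstdc6 were 95.2% identical and differed at 14 of 291 aligned positions. Cstdc5 and Stfa1 were 97.9% identical and differed at 6 positions. Stfa3 was 79.3% identical to Cstdc5 and shared no 50-base run with any other member. The coding sequences of Cstdc5 and Cstdc6, read from the GRCm38 genome 5′ to 3′ without the stop codon, are shown because both genes were read in every group and their reads could be split. The other pairs with shared runs were Cstdc5 with Stfa1, Cstdc6 with Stfa1 and Stfa2 with Stfa2l1. With genes outside the 8, Cstdc4 shared runs with Csta2, and Cstdc5 shared runs with Csta1. Capitals mark the bases that differ between Cstdc5 and Cstdc6, and Cstdc6 lacks 3 bases near the start.

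Cstdc5: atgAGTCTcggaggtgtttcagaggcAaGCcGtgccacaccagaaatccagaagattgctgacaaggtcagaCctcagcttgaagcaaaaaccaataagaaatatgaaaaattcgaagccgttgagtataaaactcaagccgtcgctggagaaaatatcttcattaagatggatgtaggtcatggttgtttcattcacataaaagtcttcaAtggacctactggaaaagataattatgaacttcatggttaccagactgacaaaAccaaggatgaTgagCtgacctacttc
Cstdc6: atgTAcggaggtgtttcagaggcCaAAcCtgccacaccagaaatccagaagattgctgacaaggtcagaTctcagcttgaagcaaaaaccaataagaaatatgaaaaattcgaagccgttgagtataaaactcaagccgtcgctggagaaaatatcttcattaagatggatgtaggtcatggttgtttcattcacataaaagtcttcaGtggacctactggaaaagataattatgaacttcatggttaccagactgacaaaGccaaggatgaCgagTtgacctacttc

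The same closeness extends to the DNA before the start sites. RefSeq promoter windows on GRCm38.p6 were found for 6 of the 7 chromosome 16 genes and for Cstdc2. Within the 250 bases before the start, the longest run of bases that all 6 held was the 12 bases ACCTTTAAAACC. It was found in 10 of 32851 mouse promoter windows of that length, or 0.0304%, searched only on the strand of each gene. The holders were these 6 genes together with Csta3, Cstdc3, Gm39539 and Gm7260, and Cstdc2 did not hold it. Pairwise identity among the 6 windows ran from 65.2 to 89.4% over 15 pairs. The last 120 bases before each annotated start follow, 5′ to 3′ in the direction of the gene, with the shared run in capitals. They show how alike the copies with many and with few reads are.

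Cstdc5, chr16:36367571-36367690, minus strand: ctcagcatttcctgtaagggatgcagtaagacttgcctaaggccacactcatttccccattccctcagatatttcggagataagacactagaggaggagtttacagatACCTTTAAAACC
Stfa3, chr16:36455393-36455512, minus strand: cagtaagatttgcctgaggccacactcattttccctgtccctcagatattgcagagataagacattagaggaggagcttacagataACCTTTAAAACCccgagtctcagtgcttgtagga
Stfa2, chr16:36408364-36408483, minus strand: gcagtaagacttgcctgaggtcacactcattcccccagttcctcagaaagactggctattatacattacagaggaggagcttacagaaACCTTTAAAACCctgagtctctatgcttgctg
Stfa2l1, chr16:36156691-36156810, plus strand: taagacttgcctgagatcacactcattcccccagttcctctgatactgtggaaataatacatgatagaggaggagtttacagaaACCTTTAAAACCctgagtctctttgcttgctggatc
Cstdc4, chr16:36184092-36184211, plus strand: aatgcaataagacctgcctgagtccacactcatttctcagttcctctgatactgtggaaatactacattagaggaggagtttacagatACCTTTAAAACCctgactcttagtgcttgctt
Stfa1, chr16:36277028-36277147, plus strand: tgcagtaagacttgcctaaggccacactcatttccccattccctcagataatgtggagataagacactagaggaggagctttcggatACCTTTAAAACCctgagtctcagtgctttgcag

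The run began 32 to 36 bases before the start in 5 of the 6 genes and 12 bases before the annotated start of Cstdc5. The letters TATAAA, held by 12.4% of all windows, and the AP-1 letters TGANTCA, held by 6.75%, were not in the window of any of the 6 genes on either strand. The C/EBP letters TTGCNNAA (9.56% of windows) were found in Stfa1 and Cstdc5. The PU.1 and ETS letters GAGGAAG (10.6% of windows) were found in Cstdc4, Stfa1 and Cstdc5. These are matches of letters in a window, and no binding was measured.

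In every group most of the reads fell on 3 members, Cstdc5, Cstdc6 and Stfa3. Total estimated counts per sample lay between 15840551 and 18404188, so 3 counts, used here as the lower limit of detection, stood for 0.159 to 0.211 CPM (counts scaled to library size with edgeR's TMM factors). Of the 8 genes, 4 passed the filter on low counts, among the 15369 genes tested: Cstdc5, Cstdc6, Stfa3 and Stfa2. Stfa2 passed only through HDB 10 mm samples, since a fit of the 4 other groups kept 3 members, so its tests are void and test results are given for Cstdc5, Cstdc6 and Stfa3. Per kilobase of transcript, the only scale on which levels of different genes were compared, mean levels in normal skin were 4.16 CPM per kb for Stfa3, 1.87 for Cstdc5 and 0.715 for Cstdc6. In HDB 10 mm skin they were 470.1 CPM per kb for Cstdc5, 280.0 for Stfa3 and 150.5 for Cstdc6. Stfa3 was also above Cstdc5 in HDB 10 mm replicate 1 (21.8 CPM per kb, against 12.9). In acellular 10 mm skin the mean of Stfa3 was 24.1 CPM per kb and that of Cstdc5 16.5, a gap smaller than the SD of Cstdc5 (15.7). The means of Cstdc5 and Stfa3 in both 15 mm groups differed by less than their SD.

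**Figure D1:**
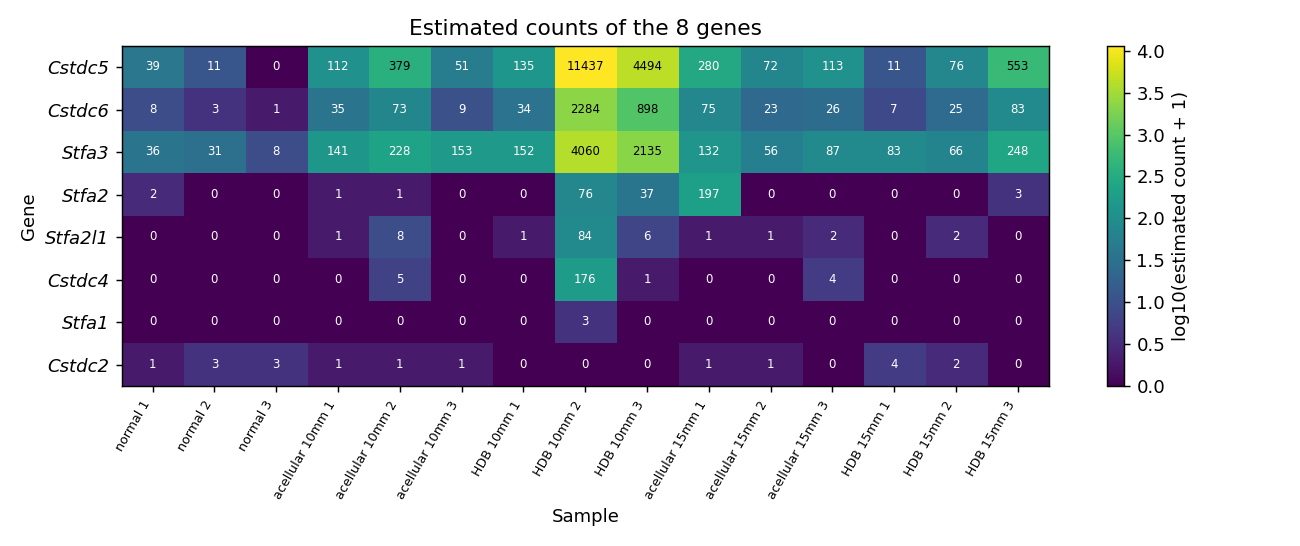
Estimated counts (rounded) of the 8 genes in each of the 15 samples, printed in the cells and coloured on a log10(count + 1) scale. Replicates 2 and 3 of HDB 10 mm skin stand out for Cstdc5, with 11437 and 4494 counts, while replicate 1 of that group holds 135.

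Cstdc5, the gene on which the set was selected, stood at 7.99, 615 and 250 CPM in replicates 1, 2 and 3 of HDB 10 mm skin. In acellular 10 mm skin it stood at 6.39, 21.3 and 2.98 CPM. Replicate 1 of HDB 10 mm skin was thus within the range of acellular 10 mm skin, and the other 2 replicates were far above every other sample of the series. In the 15 mm wounds Cstdc5 was at 15.9, 4.2 and 6.0 CPM with acellular beads and at 0.628, 4.61 and 31.2 CPM with HDB. Normal skin had 2.74 and 0.737 CPM and no read in replicate 3, below the limit of 3 counts. Outside replicates 2 and 3 of HDB 10 mm skin, the highest of the other 13 samples was thus 31.2 CPM.

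In descending order of the mean, Cstdc5 was at 291 ± 306 CPM in HDB 10 mm, 12.2 ± 16.6 in HDB 15 mm, 10.2 ± 9.73 in acellular beads at 10 mm, 8.69 ± 6.28 at 15 mm, and 1.16 ± 1.42 in normal skin (mean ± SD, n = 3 each). The SD exceeded the mean in HDB 10 mm, HDB 15 mm and normal skin. The samples of each pair of neighbours in this order down to acellular 15 mm overlapped, whereas those of acellular 15 mm all lay above normal skin. HDB 10 mm skin held 90.5% of all Cstdc5 counts of the series, and its replicate 2 alone held 64.4%. As fitted, Cstdc5 was 4.83 higher on the log2 scale in HDB than in acellular 10 mm skin, a ratio of 28.5 between mean CPM. This difference became 3.68 without HDB 10 mm replicate 2, 4.93 without replicate 3 and 5.43 without replicate 1. Against normal skin it was 7.98, a ratio of 251.1, and it became 6.81 without HDB 10 mm replicate 2, 8.08 without replicate 3 and 8.57 without replicate 1.

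**Figure D2:**
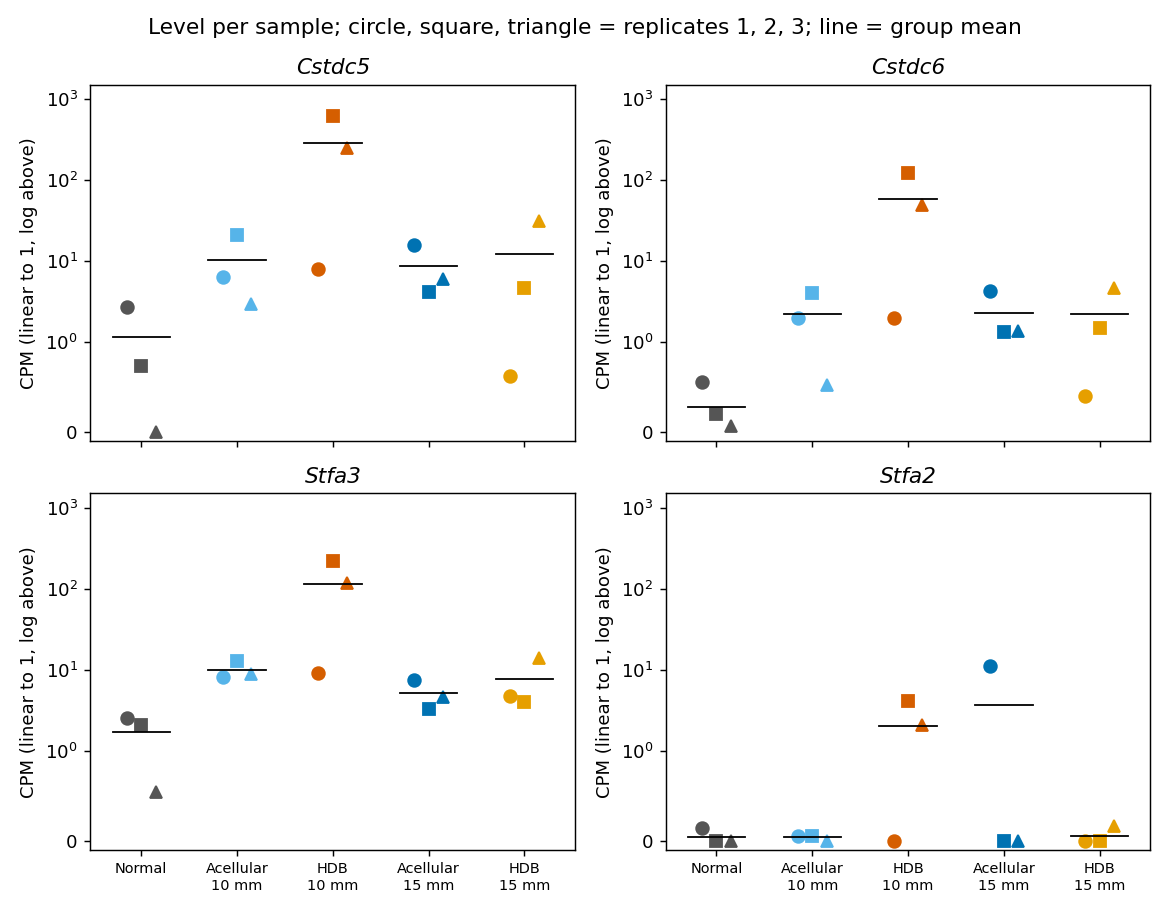
Levels of the 4 genes that passed the filter, in CPM on an axis that is linear up to 1 and logarithmic above, by group, with a marker per replicate and a line at the group mean. For Cstdc5, Cstdc6 and Stfa3, HDB 10 mm replicates 2 and 3 lie above all other samples while replicate 1 (7.99, 2.01 and 9.0 CPM) lies among those of other wounds.

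Cstdc6, the near-copy of Cstdc5, had 2.01, 123 and 49.9 CPM in HDB 10 mm replicates 1, 2 and 3. Acellular 10 mm skin had 2.00, 4.10 and 0.526 CPM. The 15 mm wounds had 4.25, 1.34 and 1.38 CPM with acellular beads and 0.400, 1.52 and 4.69 CPM with HDB. In normal skin it was at 0.562, 0.201 and 0.0671 CPM, which is 8, 3 and 1 counts, so replicates 2 and 3 were at or below the limit. The same pair of HDB 10 mm replicates was high, and 10 of 12 wound samples lay above all normal samples. The group means were 58.3 ± 60.9 CPM in HDB 10 mm, 2.32 ± 1.67 with acellular beads at 15 mm, 2.21 ± 1.80 at 10 mm, 2.2 ± 2.22 in HDB 15 mm and 0.277 ± 0.256 in normal skin (mean ± SD, n = 3). The 3 wound groups other than HDB 10 mm differed by far less than their SD.

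How the deposited values divide Cstdc5 from Cstdc6 rests on the authors' counting. In several samples both genes had decimal counts, such as 11437.26 and 2283.74 in HDB 10 mm replicate 2, and the sum of the pair was a whole number in all 15 samples. In other samples, such as acellular 10 mm replicate 1 with 112 and 35, both counts were whole. Cstdc6 took 16.6% of the sum in HDB 10 mm replicate 2 and 16.7% in replicate 3, and 13.1 to 38.9% in the other samples except normal replicate 3, whose only count was of Cstdc6. Where reads were divided, the levels of Cstdc5 and Cstdc6 are not independent of each other. Summed to 1 gene, the pair gave the same calls as Cstdc5 and Cstdc6 apart in each of the 5 tested comparisons, with adjusted p between 0.158 and 0.960 in edgeR's quasi-likelihood test.

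Stfa3, whose transcript shares no 50-base run with the other members, had 9.0, 218 and 119 CPM in HDB 10 mm replicates 1, 2 and 3. Acellular 10 mm skin had 8.05, 12.8 and 8.94 CPM. The 15 mm wounds had 7.48, 3.27 and 4.62 CPM with acellular beads and 4.74, 4.00 and 14.0 CPM with HDB. Normal skin had 2.53, 2.08 and 0.537 CPM. All 12 wound samples lay above the 3 normal samples, the lowest at 3.27 CPM against a highest normal value of 2.53. Group means were 115 ± 105 CPM in HDB 10 mm, 9.93 ± 2.53 in acellular 10 mm, 7.58 ± 5.57 in HDB 15 mm, 5.12 ± 2.15 in acellular 15 mm and 1.71 ± 1.04 in normal skin (mean ± SD, n = 3). HDB 10 mm was 3.54 above acellular 10 mm skin on the log2 scale, and 2.70 above it without HDB 10 mm replicate 2.

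Stfa2 did not follow the other 3 genes that passed the filter. Its estimated counts were 0, 76 and 37 in HDB 10 mm, 197, 0 and 0 in acellular 15 mm, 0, 0 and 3 in HDB 15 mm, 1, 1 and 0 in acellular 10 mm and 2, 0 and 0 in normal skin. Acellular 15 mm replicate 1 alone held 62.2% of all its counts, and HDB 10 mm skin held 35.7%. The sample with most Stfa2 was thus a wound without implanted cells in which Cstdc5 stood at 15.9 CPM. The same sample had the highest summed level of hair shaft and inner root sheath genes of the series, 25285 CPM, and the part of this in the Stfa2 value was not tested. No fold change is given for Stfa2, because at least one side of each comparison was at or below 3 counts in most samples.

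The other 4 genes failed the filter. Stfa2l1, the copy closest to Stfa2 with 96.4% identity over the coding sequence, had 1, 84 and 6 counts in HDB 10 mm and at most 8 in any other sample. Cstdc4 had 0, 176 and 1 counts in HDB 10 mm and at most 5 elsewhere, so that HDB 10 mm replicate 2 held 94.6% of its counts. These 2 genes thus stood out in HDB 10 mm replicate 2 but not in replicate 3, where Cstdc5 was also high. Stfa1 had 3 counts, all in HDB 10 mm replicate 2. Reads of Stfa1 could not be detected at this depth in the other 14 samples, although its coding sequence is the most similar to that of Cstdc5. Cstdc2, the member on chromosome 2, had 18 counts in all, at most 4 in a sample and none in HDB 10 mm skin.

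The first tested comparison asked whether the beads with cells changed the stefin genes at the other wound size. Between HDB and acellular 15 mm skin, none of the 3 genes was called by edgeR's quasi-likelihood test (Benjamini-Hochberg adjusted p under 0.05), where 450 of 15369 genes, or 2.93%, were called. DESeq2 called none of the 3 either, beside 2174 of all genes, and in edgeR none of the 3 had an unadjusted p under 0.05, beside 3567 of all genes. Cstdc5 differed by 0.49 on the log2 scale (SE 1.38, adjusted p = 0.858), Cstdc6 by -0.075 (SE 1.16, adjusted p = 0.976) and Stfa3 by 0.57 (SE 0.845, adjusted p = 0.716). Without the HDB 10 mm samples in the fit, edgeR's adjusted p was 0.850, 0.967 and 0.598. The samples of both groups overlapped for all 3 genes. The direction of Cstdc5 and of Stfa3 rested on HDB 15 mm replicate 3, since without it they stood at -1.74 and -0.23. The standard errors leave room for differences of several fold either way. With a block for the replicate number, fitted over all 15 samples, the differences were 0.26 for Cstdc5, -0.22 for Cstdc6 and 0.47 for Stfa3 (edgeR adjusted p = 0.942, 0.937 and 0.786). In that fit 179 of all genes were called. The block also used the HDB 10 mm samples, so it was not a paired test of the compared groups alone.

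The next 3 comparisons set wounds against unwounded skin and share the 3 normal samples, so they are not independent of each other. In acellular 10 mm against normal skin, Stfa3 was higher by 2.53 on the log2 scale (SE 0.926, adjusted p = 0.0677), Cstdc5 by 3.15 (SE 1.63, adjusted p = 0.173) and Cstdc6 by 2.98 (SE 1.48, adjusted p = 0.156). None of the 3 genes was called by edgeR, beside 3125 of all genes or 20.3%. Of the 3, Stfa3 had an unadjusted p under 0.05, as had 5881 of all 15369 genes. The samples of Stfa3 and of Cstdc5 did not overlap between the groups, as in 56.3% of all genes tested. The call on Stfa3 depended on the fit: its adjusted p was 0.0209 with DESeq2, which called 5058 of all genes, 0.00918 when only the groups compared were fitted and 0.0234 in the fit without HDB 10 mm skin, and over all alternatives it ran from 0.00918 to 0.199. In the fit without HDB 10 mm skin edgeR's adjusted p was 0.141 for Cstdc5 and 0.0798 for Cstdc6. With a sample left out, the difference ran from 2.03 to 4.76 for Cstdc5, from 2.18 to 3.97 for Cstdc6 and from 2.10 to 2.91 for Stfa3. That of Cstdc5 was lowest without acellular 10 mm replicate 2 and highest without normal replicate 1.

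In acellular 15 mm against normal skin the log2 differences were 2.91 for Cstdc5 (SE 1.63, adjusted p = 0.186), 3.05 for Cstdc6 (SE 1.47, adjusted p = 0.129) and 1.58 for Stfa3 (SE 0.922, adjusted p = 0.204). None of the 3 genes was called by edgeR, where 4642 of all genes or 30.2% were, and none of the 3 had an unadjusted p under 0.05, beside 6729 of all genes. DESeq2 called 1 of the 3, Cstdc6, at an adjusted p of 0.0427, beside 6185 of all 15369 genes. Over all alternatives the adjusted p of Cstdc6 ran from 0.0427 to 0.343. With a sample left out, the difference ran from 2.15 to 4.53 for Cstdc5, from 2.29 to 4.04 for Cstdc6 and from 1.15 to 1.97 for Stfa3, with Cstdc5 and Cstdc6 lowest without acellular 15 mm replicate 1 and highest without normal replicate 1. Without the HDB 10 mm samples in the fit, edgeR's adjusted p was 0.144 for Cstdc5, 0.0586 for Cstdc6 and 0.0759 for Stfa3. The samples of the 3 genes did not overlap between the groups, as in 44% of all genes tested.

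In HDB 15 mm against normal skin, Cstdc5 was 3.40 higher on the log2 scale (SE 1.64, adjusted p = 0.203), Cstdc6 2.98 (SE 1.48, adjusted p = 0.215) and Stfa3 2.15 (SE 0.923, adjusted p = 0.161). None of the 3 was called by edgeR or DESeq2, beside 796 of all genes or 5.18% in edgeR and 2864 in DESeq2. Of the 3, Stfa3 had an unadjusted p under 0.05 in edgeR, as had 4133 of all 15369 genes. The differences were 1.18, 1.77 and 1.35 for Cstdc5, Cstdc6 and Stfa3 without HDB 15 mm replicate 3, and 5.04, 3.98 and 2.55 without normal replicate 1. Without the HDB 10 mm samples in the fit, edgeR's adjusted p was 0.168, 0.122 and 0.0702 for Cstdc5, Cstdc6 and Stfa3. The samples did not overlap for Stfa3, as in 46.4% of all genes tested, while HDB 15 mm replicate 1 lay among the normal samples for Cstdc5 and Cstdc6.

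The last tested comparison asked whether wound size mattered when no cells were implanted. Between acellular 15 mm and acellular 10 mm skin edgeR called none of the 3 genes and no gene at all (0%). None of the 3 had an unadjusted p under 0.05, while 2684 of all genes did. DESeq2 called none of the 3 and 1049 of all genes. Stfa3 differed by -0.95 (log2, SE 0.845, adjusted p = 0.586), with acellular 10 mm samples all above those of acellular 15 mm, and 16.5% of all genes tested did not overlap in one direction or the other. Cstdc5 differed by -0.24 (SE 1.38, adjusted p = 0.948) and Cstdc6 by 0.070 (SE 1.16, adjusted p = 0.981). Without the HDB 10 mm samples in the fit, edgeR's adjusted p was 0.446, 0.949 and 0.965 in the same order.

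**Figure D3:**
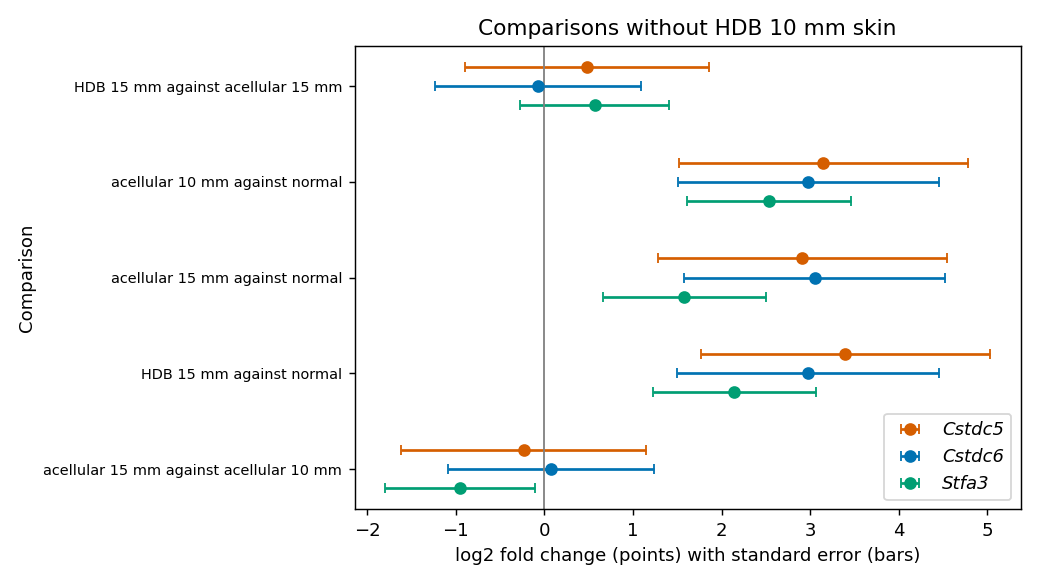
Fitted log2 fold changes (points) with their standard errors (bars) of Cstdc5, Cstdc6 and Stfa3 in the 5 comparisons among the other groups, from edgeR's fit of all 5 groups. The points against normal skin lie between 1.58 and 3.40, those between wound groups between -0.95 and 0.57, and none had an adjusted p under 0.05 in this fit, while Stfa3 in acellular 10 mm against normal skin had 0.0234 in the fit without HDB 10 mm samples.

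Other cystatins and the proteases that stefins block were counted beside the members, from lists chosen with earlier results known. Outside the 8 members, 8 cystatins of the list were in the table and 5 were tested. Cstb, the single mouse stefin B gene, rose in acellular 10 mm against normal skin by 1.87 on the log2 scale (SE 0.329, adjusted p = 0.00622), in acellular 15 mm by 1.60 (adjusted p = 0.00643) and in HDB 15 mm by 1.62 (adjusted p = 0.0256). Cst6, the secreted cystatin M/E of epidermis, rose in acellular 10 mm skin by 1.70 (adjusted p = 0.0476). The rest of the 5 were not called in these comparisons, and none was called between HDB and acellular 15 mm or between acellular 15 mm and acellular 10 mm skin. The calls were thus 2 of 5 in acellular 10 mm, 1 of 5 in acellular 15 mm and 1 of 5 in HDB 15 mm against normal skin, beside 20.3%, 30.2% and 5.18% of all genes. The median log2 difference of the 5 was 1.04 in acellular 10 mm skin, beside 0.028 over all genes, 0.24 beside 0.059 in acellular 15 mm skin and 0.74 beside 0.019 in HDB 15 mm skin.

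Csta1, the first gene of the same cluster but outside the chosen symbols, had 13.0, 81.8 and 79.5 CPM in HDB 10 mm replicates 1, 2 and 3. In the other 12 samples it lay between 22.5 and 71.9 CPM, and its mean in normal skin was 58.9 ± 7.45 CPM (SD, n = 3). Its level in HDB 10 mm replicates 2 and 3 was thus slightly above the highest of the other samples, where that of Cstdc5 was far above it. Cstb in HDB 10 mm skin lay between 121 and 212 CPM, and in the other wounds between 123 and 278 CPM.

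Among 10 cysteine cathepsins, all tested, Ctsw, a cathepsin of cytotoxic lymphocytes, rose in acellular 10 mm against normal skin by 2.17 (adjusted p = 0.0483) and in acellular 15 mm by 2.05 (adjusted p = 0.0455). The other 9 did not pass the test in these comparisons, and none passed in the other 3. In both comparisons 1 of 10 is below the 20.3% and 30.2% called over all genes. Ctsb, which encodes the lysosomal protease cathepsin B, lay between 738 and 832 CPM in HDB 10 mm skin and between 486 and 1351 CPM in the other 12 samples. The median log2 difference of the cathepsins between HDB and acellular 10 mm skin was 0.20, beside -0.0083 over all genes, as a description.

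Markers of other cells moved with the stefin genes in some samples. In bulk skin, more cells of a type and more RNA per cell cannot be told apart. Summed over the 8 genes, HDB 10 mm replicates 1, 2 and 3 held 19.1, 975.0 and 420.5 CPM, and the other 12 samples held 0.805 to 50.1 CPM. All 21 genes of the neutrophil list were in the table and 13 were tested. Their summed level was 34.6, 570.3 and 77.6 CPM in HDB 10 mm skin, 37.2 to 161 with acellular beads at 10 mm, 19.0 to 70.0 at 15 mm, 36.7 to 59.5 in HDB 15 mm and 42.6 to 53.4 in normal skin. Replicate 2 of HDB 10 mm skin was therefore the highest on both measures, while replicate 3 lay below acellular 10 mm replicate 2 on the neutrophil list. Of the 21 genes, 13 had their highest level of the series in HDB 10 mm replicate 2 and none in replicate 3, beside 5.81% and 4.61% of the 18834 genes with reads. In replicate 2 the list's level came mainly from Il1b (218.6 CPM), S100a9 (123.2) and S100a8 (72.5), which keratinocytes and macrophages can also make. In replicate 3 these genes stood at 17.9, 5.2 and 3.0 CPM. Cxcr2, a chemokine receptor of neutrophils, was at 4.84 and 1.78 CPM in replicates 2 and 3 and at most 1.65 CPM in the other 13 samples. Csf3r, the receptor for the granulocyte growth factor G-CSF, was at 16.5 and 7.16 CPM, with 11.1 CPM as the highest of the others. Clec4d, a receptor of myeloid cells, was at 42.1 and 5.44 CPM, with 21.6 CPM as the highest of the others. Prtn3 of the same list went the other way, at 0.592 and 1.00 CPM, with 13.5 CPM as the highest of the others. Lcn2, Clec4e, Camp and Ltf were also higher in another sample than in both replicates. Ly6g, Ngp and Elane had no reads in either replicate and were at most 0.400 CPM in every sample of the series. The part of these cells in the stefin values was not tested.

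The cornified envelope list, 19 of its 20 genes in the table, summed to 1503, 4145 and 3965 CPM in HDB 10 mm replicates 1, 2 and 3. The other wound samples lay between 1069 and 3064 CPM, and normal skin between 4169 and 5508 CPM. Flg, which encodes the filaggrin precursor of the outer epidermis, was at 37.2, 365.1 and 447.9 CPM in the 3 HDB 10 mm samples and at most 147.6 CPM elsewhere, and it was singled out after its values were seen. Both replicates with high stefin levels were thus also the wound samples with most cornified envelope RNA, and replicate 1 was among those with least. Of the 19 genes, 7 were higher in both of these replicates than in all 13 other samples, beside 1.36% of the 18834 genes with reads. They were Flg, Lce1f and 5 genes of the Lce3 group of late envelope proteins. These 5 failed the filter and were low in replicates 2 and 3. Lce3c was the highest of them, at 2.15 and 2.55 CPM. Lce3a was at 0.269 and 0.222 CPM and Lce3b at 1.345 and 0.167 CPM, where 3 counts stood for 0.161 and 0.167 CPM. The part of cornified envelope RNA in the stefin values was not tested. Between acellular 15 mm and normal skin, 4 of the 14 tested genes of the list fell and none rose, beside 1941 of the 15369 genes that fell (median log2 difference -0.68, beside 0.059 over all genes).

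The wound keratinocyte list had 18 of its 20 genes in the table and 10 tested. In acellular 10 mm against normal skin 3 of the 10 rose, with Krt16, a keratin of activated epidermis, at 3.70, beside 20.3% of all genes called in either direction. In acellular 15 mm skin 4 rose, with Krt16 at 5.09, and 1 fell, beside 30.2% called over all genes. In HDB 15 mm skin 2 rose, with Krt16 at 6.03, beside 5.18%. The list's median log2 difference was 1.92, 2.08 and 2.14 in these comparisons, beside 0.028, 0.059 and 0.019 over all genes.

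The summed level of this list was 768 to 1400 CPM in HDB 10 mm skin and 930 to 4017 CPM in the other wounds. Single members differed from this sum, since 11 of the 18 genes had their highest level of the series in HDB 10 mm replicate 2 and 1 of them in replicate 3, beside the same 5.81% and 4.61% of all genes. Several of these were near or below 3 counts (0.161 CPM) in replicate 2, such as Defb3 and Sprr2k at 0.108 CPM, Serpinb3c at 0.323 and Il24 at 0.377 CPM. Krt6a, Krt16, Krt17, Sprr1a, Sprr2h and Tgm1 were highest in samples other than these replicates. In both HDB 10 mm replicates 2 and 3, 4 of the 18 genes, Sprr2d, Serpinb3a, Serpinb3b and Serpinb3d, were above all 13 other samples, beside 1.36% of all genes. Sprr2d, a small proline-rich envelope precursor, was at 2.04 and 0.777 CPM, with 0.211 CPM as the highest of the others. Serpinb3b, of the clade B serine protease inhibitors, was at 51.3 and 26.7 CPM, with 26.5 CPM as the highest of the others. These genes were singled out after their values were seen, and the part of activated keratinocytes in the stefin values was not tested.

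The macrophage list lay between 371 and 651 CPM in HDB 10 mm skin and between 178 and 1425 CPM in the other groups. Of its 10 genes, 7 fell in acellular 10 mm against normal skin, beside 1624 of all 15369 genes, with a list median of -1.94 beside 0.028. In acellular 15 mm skin 6 fell, beside 1941 of all genes, with a list median of -1.57 beside 0.059. None of the 10 had its highest level in HDB 10 mm replicate 2 or 3. Skeletal muscle genes summed to 32485, 740 and 7831 CPM in HDB 10 mm replicates 1, 2 and 3, lowest where the stefin genes were highest, and their part in the stefin values was not tested. The hair list lay at 43.3 to 47.8 CPM in HDB 10 mm skin and at 26.8 to 1690 CPM in acellular 10 mm skin, with a median log2 difference of -5.18 as a description. Against normal skin, all 15 of its tested genes rose in acellular 15 mm, beside 2701 of all 15369 genes, 5 rose in acellular 10 mm, beside 1501 of all genes, and none was called in HDB 15 mm, where 5.18% of all genes were. Its part in the stefin values was not tested.

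**Figure D4:**
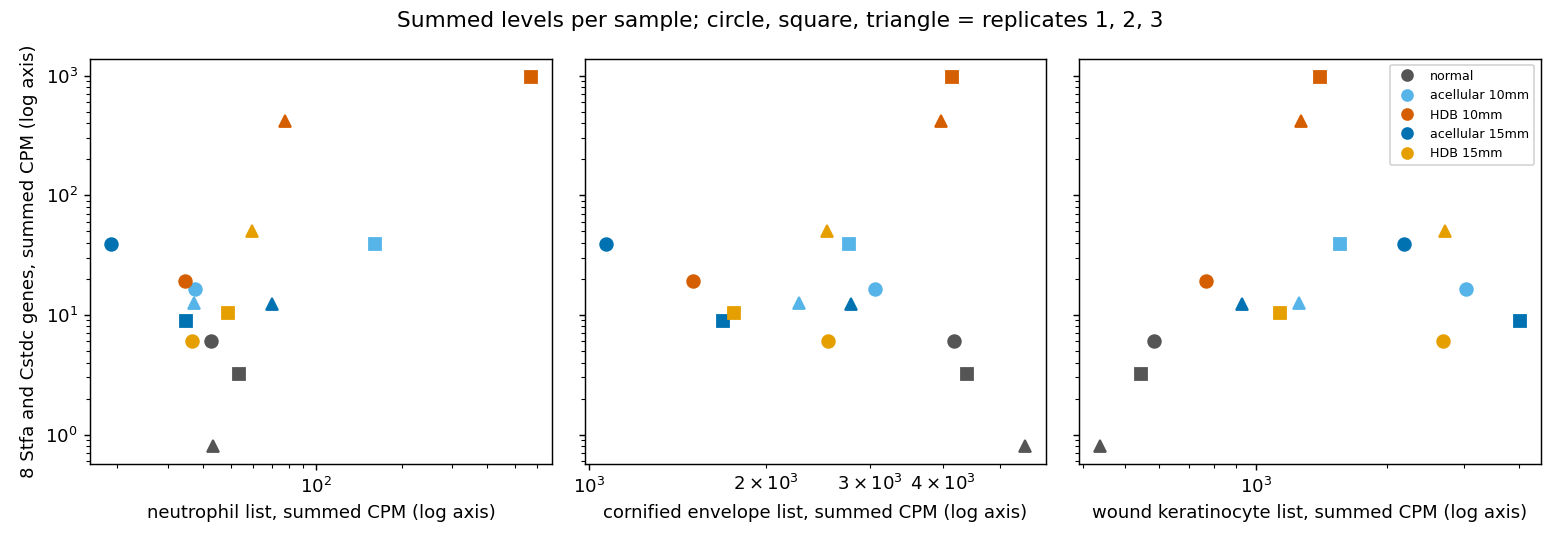
Summed level of the 8 stefin genes (vertical) against the summed level of the neutrophil, cornified envelope and wound keratinocyte lists (horizontal), all in CPM on log axes, with a point per sample. HDB 10 mm replicates 2 and 3 stand at 975.0 and 420.5 CPM of stefin genes, at 570.3 and 77.6 CPM of neutrophil genes, and close together in the sums of the other lists.

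Genes whose pattern was most like that of Cstdc5 were ranked by the correlation of log2 CPM over the 15 samples. These are descriptions, because the points share libraries and 2 of them lie far above the rest. Cstdc6 and Stfa3 were the most alike, with Pearson r = 0.977 and 0.945 (Spearman rho = 0.986 and 0.868), and Stfa2 was placed 224th with r = 0.680. Without the 2 highest samples, which are HDB 10 mm replicates 2 and 3, these values were 0.962, 0.874 and 0.392. The 5 most alike outside the set were 2610528A11Rik (r = 0.934, rho = 0.868), Pdss1 (r = 0.921, rho = 0.900), Cdhr1 (r = 0.918, rho = 0.906), Prss35 (r = 0.889, rho = 0.879) and Gpr35 (r = 0.870, rho = 0.868). Without the same 2 samples, r was 0.859, 0.821, 0.805, 0.748 and 0.790 in the same order. Csta1 had r = 0.321 over all 15 samples and -0.142 without these 2.

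Of these, 2610528A11Rik, which encodes the ligand of the receptor GPR15, stood at 0.829, 14.0 and 8.05 CPM in HDB 10 mm replicates 1, 2 and 3, and at 1.77, 5.00 and 0.877 CPM in acellular 10 mm skin. Prss35, which encodes a serine protease-like protein, stood at 1.72, 49.3 and 33.4 CPM in HDB 10 mm skin. As with Cstdc5, replicate 1 was low and replicates 2 and 3 were high in both genes.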

How the data were processed

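Skin RNA was sequenced from 15 samples in 5 groups of 3, grouped by their labels. Per gene, the deposited values are estimated counts, not normalized, from poly(A)-selected libraries. The submitters' processing notes name HISAT2 2.0.4, Bowtie2 2.2.5, RSEM 1.2.12 and GRCm38.p6, without giving their roles, and reads of near-identical copies can be divided between genes in such counts. Counts were rounded and tested in R 4.3.3 with edgeR 4.0.16 (TMM, filterByExpr, glmQLFit and glmQLFTest, 1 fit of 5 group means, Benjamini-Hochberg over 15369 genes, threshold 0.05). Log2 CPM used a prior count of 2. Standard errors were taken from the ratio of each log2 fold change to the root of its F value. With 3 samples a side, an exact permutation test cannot go below 0.1, so none is given. The scripts were tested on simulated data.

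The members, lists and tests were chosen with earlier results of these data known. Every Stfa and Cstdc gene is named, together with the 5 genes most correlated with Cstdc5 while the most abundant gene of a list and its most changed called genes may be named, and a few were named as chosen after their values were seen: Csta1, Flg and single genes of the neutrophil, cornified envelope and wound keratinocyte lists. Alternatives were DESeq2 1.42.0, no filter, a mean of at least 50 counts, a fit of only the groups compared, a block for the replicate number and leaving out each sample. Added after seeing the data were fits without HDB 10 mm samples and the sum of Cstdc5 and Cstdc6. Same-numbered samples were taken as pairs where all 3 correlations of their deviations exceeded 0.1, from the data and not from the labels. This held for HDB against acellular 15 mm (r = 0.397, 0.167 and 0.183) and for no other comparison. The block for the replicate number was fitted over all 15 samples, HDB 10 mm included, and not over the compared groups alone. Promoters came from RefSeq and transcripts from GENCODE M21, both on GRCm38.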

Additional observations from a re-analysis of the deposited data

How the results depend on the processing

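Of 348 values recomputed under an alternative, 292 kept their direction and their side of the threshold or, for counts, stayed within 1.5 times. No alternative called a member between wound groups or in HDB 15 mm against normal skin. In acellular 10 mm against normal skin 1 member, Stfa3, was called with DESeq2, with only the groups compared and in the fit of 4 groups without HDB 10 mm skin (added after seeing the data). In acellular 15 mm against normal skin 1 was called with DESeq2 (Cstdc6) and 0 to 1 when a sample was left out (Stfa2, without acellular 15 mm replicate 2 or 3, a void call since Stfa2 entered the tests only through HDB 10 mm samples). Depth was similar in all samples, and 3 counts limit what can be detected of Stfa1, Stfa2l1, Cstdc4 and Cstdc2.

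The number of all genes called moved more. For HDB against acellular 15 mm it was 450, and 2174 with DESeq2, 199 with no filter, 695 with the stricter filter, 0 with only the groups compared, 186 without HDB 10 mm replicate 3 in the spread, 163 in the fit of 4 groups and 0 to 2322 with a sample left out. For acellular 10 mm against normal skin 3125 became 5058 with DESeq2, 6196 with only the groups compared and 800 to 1853 with a sample left out. For acellular 15 mm against normal skin 4642 became 972 with only the groups compared and 2304 to 5805 with a sample left out. For HDB 15 mm against normal skin 796 became 2864 with DESeq2, 3401 with only the groups compared, 439 without HDB 10 mm replicate 3 in the spread and 34 to 1340 with a sample left out. For acellular 15 mm against 10 mm 0 became 1049 with DESeq2 and 0 to 526 with a sample left out. Why these counts moved was not tested.

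With a block for the replicate number, fitted over all 15 samples, 179 genes were called for HDB against acellular 15 mm, where the numbers were taken as pairs. For HDB 15 mm against normal skin, where samples share only a number, 237 were called. The block changed no member's call, and it turned the log2 difference of Cstdc5 between acellular 15 mm and 10 mm to 0.093. Every sample correlated best with its own number only for HDB against acellular 15 mm.

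Leaving out 1 sample reversed several small differences between wound groups, none of them called. For HDB against acellular 15 mm, Cstdc5 ran from -1.74 to 1.25, Cstdc6 from -1.28 to 0.69 and Stfa3 from -0.23 to 0.94. For acellular 15 mm against 10 mm, Cstdc5 ran from -1.002 to 0.89 and Cstdc6 from -0.70 to 0.87. Cstdc5 and Stfa3 turned without HDB 15 mm replicate 3.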
